A study of Homo sapiens with 6 samples.

Results

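Transcript levels of 47 genes of the centromere, the kinetochore and the spindle checkpoint were compared between LP-1 cells that had received a guide against AURKA and LP-1 cells that had received a guide without a target. The genes were chosen by symbol in the deposited gene table, which holds 17579 genes, and all 47 were found. LP-1 is a human multiple myeloma line, labelled as a B lymphoblast, and AURKA encodes the mitotic kinase Aurora A. Both groups were infected with a virus carrying a single guide RNA and grown with fetal bovine serum, and each group has 3 RNA-seq libraries. The tested cells are labelled sgAURKA with the genotype Aurora A-KO, and the control cells are labelled Vector with a non-targeting guide. The labels give neither the time after infection nor whether the cells were 1 clone or a pool. Whether replicates came from separate cultures is not stated either, and the spread that the tests rest on may be technical. In the 6 libraries the total expected count ran from 17724174 to 18523594, and 1 CPM (a count scaled to a common library size) stood for about 18.3 reads.

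Kinetochores are protein assemblies built on centromeric chromatin, where the histone H3 variant CENP-A replaces ordinary H3. An inner layer, the constitutive centromere-associated network, holds an outer layer, the KMN network of KNL1, MIS12 and NDC80 complexes, which grips the spindle microtubules. Kinetochores without proper attachment recruit the checkpoint proteins of the BUB and MAD families and the kinase TTK, which hold back anaphase, and the chromosomal passenger complex corrects wrong attachments. Many of these genes are transcribed mainly in G2 and mitosis. In bulk RNA a larger share of cells in those phases and more RNA per cell cannot be told apart.

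AURKA itself had expected counts of 2062, 2191 and 2079 in AURKA-guide replicates 1, 2 and 3, against 3498, 3364 and 3627 in control replicates 1, 2 and 3. It fell to 0.599 of the control level (edgeR quasi-likelihood adjusted p = 1.55e-06), and RNA that remains does not measure the protein. Of 8 plasma cell markers, 7 were plainly present in all libraries and SLAMF7 averaged 0.690 CPM in AURKA-guide and 0.785 CPM in control libraries. Their sum was 3415 to 3455 CPM in AURKA-guide and 3492 to 3596 CPM in control libraries, and CD38 was the 1 call (0.38 on the log2 scale, edgeR adjusted p = 4.16e-04). After the GC correction described below CD38 was at 0.33 (adjusted p = 1.81e-06), and TNFRSF17 (-0.17, 0.00642) and IRF4 (-0.14, 0.00500) were also called, both lower. Markers of other cell types were low. The 4 T and NK cell markers present in the table summed to at most 0.491 CPM in AURKA-guide and 0.595 CPM in control libraries, the 4 myeloid markers to at most 5.72 and 5.84 CPM, the 3 erythroid markers to at most 0.327 and 0.457 CPM, the 4 stromal markers to at most 5.94 and 5.73 CPM, and the 4 epithelial markers to at most 3.82 and 4.63 CPM, in the same order of groups. Of these 19 markers 6 passed the filter on low counts and were tested, and none of the 6 was called.

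Of the 47 genes 3 were called, with fold changes of 1.20 to 1.23. The checkpoint kinase gene BUB1, the corona gene CENPF and the microtubule-coupling gene SKA3 rose, and no gene of the 47 fell. All 47 genes passed the filter on low counts. Over all 13138 genes tested, 0.959% were called higher and 1.07% lower, 2.03% in either direction (edgeR quasi-likelihood test, Benjamini-Hochberg adjusted p under 0.05). With DESeq2 4 of the 47 were higher, BUB1, CENPE, CENPF and HJURP, against 0.870% of all genes it tested. The median log2 fold change of the 47 genes was 0.11, against -9.41e-05 for all tested genes, and 40 of the 47 had a fold change above 0, against 50% of all tested genes. At an unadjusted p under 0.05, 17 were higher and none lower (all tested genes, 7.54% higher and 8.58% lower). In 16 genes every AURKA-guide library lay above every control library, and in none did every AURKA-guide library lie below (10.5% and 10.2% of all tested genes).

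**Figure D1:**
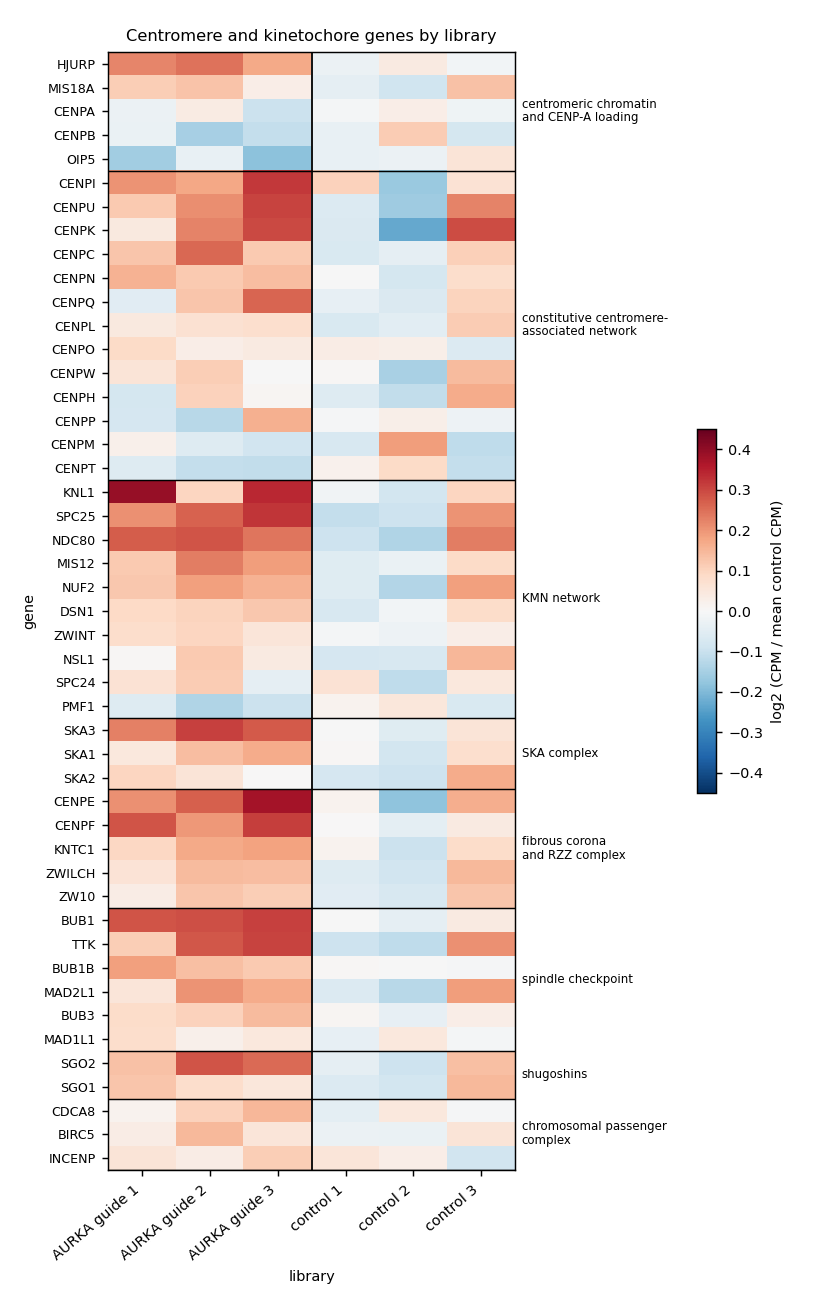
Colour gives log2 of the CPM of each gene (rows, grouped by role) in each library (columns; AURKA guide left, control right) over the mean of the 3 control libraries. Red dominates the 3 AURKA-guide columns, and control replicate 3 is also red in many rows, with a median over the 47 genes of 0.080 against -0.034 and -0.063 in control replicates 1 and 2.

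BUB1 encodes the kinase that marks the centromere and recruits other checkpoint proteins to the kinetochore. Its level was 587, 590.2 and 598 CPM in AURKA-guide replicates 1, 2 and 3, against 482, 469.9 and 497 CPM in control replicates 1, 2 and 3. The groups lay well apart, with the lowest AURKA-guide library above the highest control library. BUB1 rose by 0.29 on the log2 scale (SE 0.0432, 95% interval 0.20 to 0.39, adjusted p = 0.0020), and it was called in every alternative tried, with adjusted p from 7.46e-05 to 0.0325 when single libraries were left out. The authors' deposited gene comparison table covers the same groups and holds only 229 genes. It gives BUB1 a log2 fold change of 0.29 and a q-value of 4.87e-08. Of the genes chosen by symbol it lists only BUB1 and CENPF, and it gives no value for SKA3.

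CENPF, a large coiled-coil protein of the fibrous corona that accumulates in G2, had 191, 179.7 and 195 CPM in AURKA-guide libraries, against 157, 152 and 161 CPM in control libraries. Every AURKA-guide library was again above every control library. CENPF rose by 0.26 (SE 0.0505, adjusted p = 0.0116), and the authors' gene comparison table of the same groups gives it 0.26 and a q-value of 5.95e-04. The call was lost without control replicate 1 (adjusted p = 0.0942), AURKA-guide replicate 1 (0.0687) or AURKA-guide replicate 3 (0.126), and with limma on FPKM (0.0623 and 0.0630).

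SKA3, a subunit of the SKA complex that couples kinetochores to shortening microtubules, had 37.6, 39.8 and 38.9 CPM in AURKA-guide libraries and 32.1, 31.0 and 33.5 CPM in control libraries. The groups did not overlap, and SKA3 rose by 0.27 (SE 0.0630, adjusted p = 0.0407). This call was close to the threshold. It was lost without control replicate 1 (adjusted p = 0.205), control replicate 2 (0.0843) or AURKA-guide replicate 1, 2 or 3 (0.0870, 0.226 and 0.201), with DESeq2 (0.0747) and with limma on FPKM (0.0598 and 0.0582).

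HJURP, the chaperone that deposits CENP-A, stood just outside. Its level was 96.4, 98.0 and 93.2 CPM in AURKA-guide libraries and 81.2, 85.1 and 82.1 CPM in control libraries, again without overlap. The log2 difference was 0.21 (SE 0.0518, adjusted p = 0.0503). It passed with DESeq2 (adjusted p = 0.0465), and with edgeR using library size alone as the scaling (0.0421) or the replicate number as a block (0.0342). With edgeR it also passed without control replicate 2 (0.0323) or 3 (0.0119) and after the GC correction described below (0.00303). It did not pass without AURKA-guide replicate 1, 2 or 3 (edgeR adjusted p = 0.176, 0.261 and 0.165) or control replicate 1 (0.29). With limma on either FPKM scale it was not called. CENPE, the plus-end kinesin that aligns chromosomes, is named for its value: 80.6, 84.2 and 90.5 CPM in AURKA-guide libraries and 70.6, 61.7 and 78.4 CPM in control libraries, a difference of 0.28 (SE 0.0766, adjusted p = 0.0892; 0.0460 with DESeq2). Its edgeR adjusted p ranged from 0.00124 to 0.428 without single libraries and was 0.0153 with the replicate number as a block.

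The promoters of the 4 genes with the smallest p (BUB1, CENPF, SKA3 and HJURP) are shown because promoters of many G2 and mitosis genes carry CCAAT boxes, which the factor NF-Y binds, and CHR elements, which the DREAM and MuvB complexes bind. Sequences are from RefSeq (GRCh38.p14), 250 bases before the gene's start, 5′ to 3′ on the gene's strand. No factor binding was measured in these libraries. Capitals mark CCAAT or its reverse complement ATTGG, and the CHR letters TTTGAA or its reverse complement TTCAAA. The letters TTCGAA and the E2F-like letters GGCGGGAA, GGCGCGAA, CGCGGGAA and CGCGCGAA were searched on both strands too and are absent from these 4 stretches.
BUB1 at chr2:110678064-110678313, minus strand: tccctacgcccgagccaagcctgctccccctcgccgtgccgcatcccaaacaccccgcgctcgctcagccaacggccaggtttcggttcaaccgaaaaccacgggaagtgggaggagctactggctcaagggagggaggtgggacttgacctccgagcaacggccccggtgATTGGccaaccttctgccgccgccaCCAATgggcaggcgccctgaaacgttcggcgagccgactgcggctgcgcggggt
CENPF at chr1:214602945-214603194, plus strand: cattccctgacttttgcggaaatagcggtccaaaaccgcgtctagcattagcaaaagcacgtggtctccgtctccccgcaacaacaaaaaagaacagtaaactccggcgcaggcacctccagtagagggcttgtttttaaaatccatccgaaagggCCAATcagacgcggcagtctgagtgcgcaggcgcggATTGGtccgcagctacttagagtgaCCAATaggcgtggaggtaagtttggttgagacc
SKA3 at chr13:21176553-21176802, minus strand: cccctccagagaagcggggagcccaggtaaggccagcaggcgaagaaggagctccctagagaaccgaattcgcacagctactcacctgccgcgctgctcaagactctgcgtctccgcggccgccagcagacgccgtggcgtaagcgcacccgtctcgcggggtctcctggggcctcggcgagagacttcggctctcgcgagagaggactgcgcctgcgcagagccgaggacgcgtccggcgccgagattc
HJURP at chr2:233854536-233854785, minus strand: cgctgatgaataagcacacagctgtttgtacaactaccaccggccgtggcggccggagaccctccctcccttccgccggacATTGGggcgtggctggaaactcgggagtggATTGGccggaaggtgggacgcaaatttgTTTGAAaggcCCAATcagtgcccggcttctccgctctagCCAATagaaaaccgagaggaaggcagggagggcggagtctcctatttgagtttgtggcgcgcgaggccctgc
In the full window, which also takes in 50 bases from the start on, position 0 is the first transcribed base. BUB1 has CCAAT letters beginning at -79 and -54 and TTCGAA at 1, CENPF has CCAAT letters at -94, -58, -33 and 12 and TTTGAA at 40, and HJURP has CCAAT letters at -169, -139, -101 and -72 and TTTGAA at -111. SKA3 has no CCAAT and has TTCAAA beginning at -3, across the start.

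RefSeq promoters were found for 38 of the 47 genes, with no entry for MIS18A, CENPH, CENPL, CENPM, KNL1, KNTC1, BUB3, TTK and BIRC5. CCAAT letters occurred in 24 of the 38 promoters (63.2%), against 34.6% of all 35116 promoters of the same length and 37% of the 10661 promoters of tested genes. CHR letters occurred in 21 (55.3%), against 16.4% of all promoters and 11.4% of those of tested genes. Both occurred in 15 (39.5%), against 6.38% and 4.73%, and E2F-like letters in 10 (26.3%), against 6.09% and 10.2%. Among the 38 genes the median log2 fold change was 0.14 for the 21 with CHR letters and 0.10 for the 17 without. For CCAAT the medians were 0.11 with and 0.11 without. They were 0.091 with and 0.114 without for CCAAT and CHR together, and 0.084 with and 0.115 without for CCAAT at 2 or more positions. For E2F-like letters they were 0.115 with and 0.106 without. These medians are a description, and a match of letters is not a measured binding site.

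**Figure D2:**
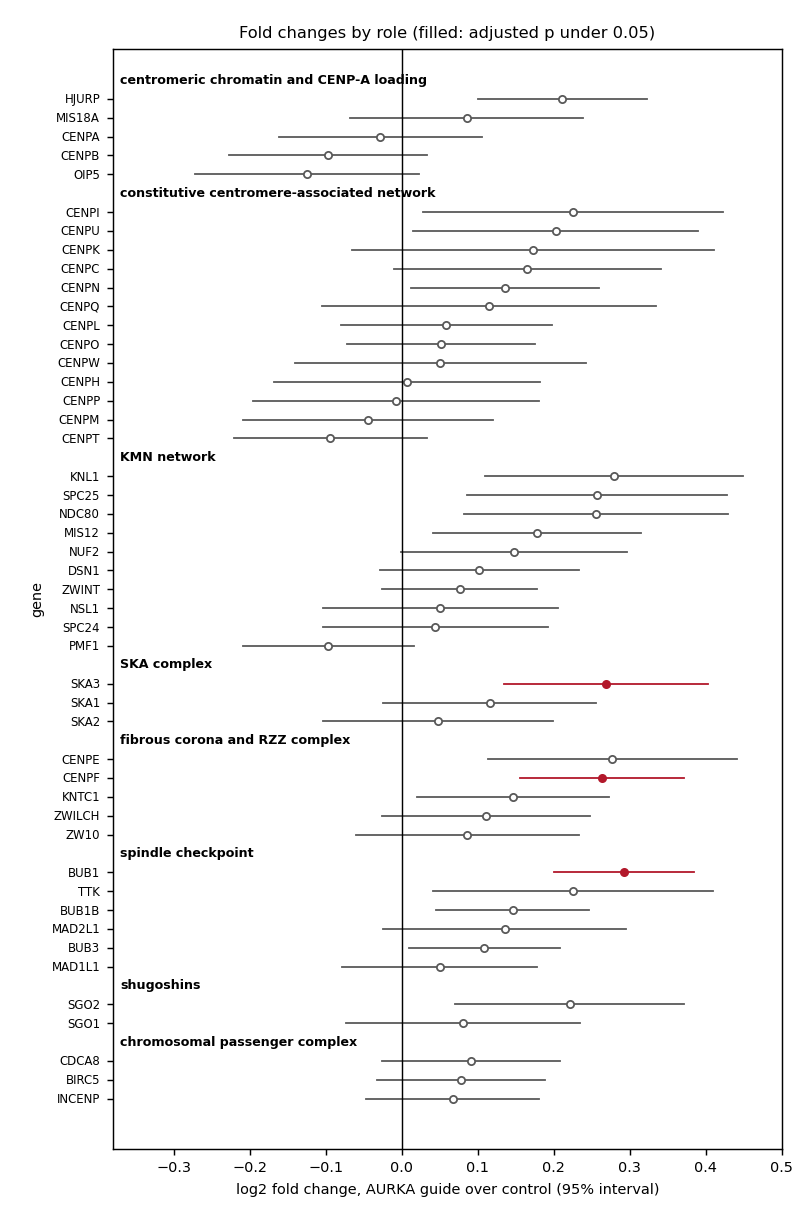
Points give the log2 fold change of each gene, AURKA guide over control, with its 95% interval from the edgeR fit, grouped by role. Filled red points are the 3 genes with an adjusted p under 0.05 (BUB1, CENPF and SKA3), and 40 of the 47 points lie above 0.

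Among the 6 spindle checkpoint genes, BUB1 was the 1 call, where 0.959% of all tested genes were called higher. All 6 differences were positive, against 50% of all tested genes. At an unadjusted p under 0.05, 4 were higher (7.54% of all tested genes). The 6 genes share their libraries, so these counts are not independent of each other. BUB1B (BubR1), which binds and inhibits the anaphase-promoting complex as part of the checkpoint complex, had 168, 162 and 159.9 CPM in AURKA-guide libraries and 148, 147 and 147 CPM in control libraries (0.15, SE 0.0470, adjusted p = 0.145). These groups did not overlap, although 457 of its exon bases are shared with the readthrough gene BUB1B-PAK6 in GENCODE 29. The kinase TTK was at 0.23 (SE 0.0861), the anaphase inhibitor MAD2L1 at 0.14 (SE 0.0750), the WD-repeat partner BUB3 at 0.11 (SE 0.0466) and the MAD2 anchor MAD1L1 at 0.05 (SE 0.0599). TTK and MAD2L1 overlapped between groups through control replicate 3, with 37.8 and 84.0 CPM there, against 35.4 to 40.5 and 76.6 to 85.0 CPM in AURKA-guide libraries.

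Of the 5 genes of the corona and the RZZ complex (ROD, ZW10 and ZWILCH, which brings dynein and the MAD proteins to kinetochores), CENPF rose and the other 4 were positive without a call. KNTC1, which encodes ROD, was at 0.15 (SE 0.0591) and ZW10 at 0.09 (SE 0.0690). ZWILCH, with the highest FPKM of this group, had 92.9, 98.3 and 97.9 CPM in AURKA-guide libraries, against 85.4, 83.7 and 98.5 CPM in control libraries (0.11, SE 0.0641, adjusted p = 0.414). Control replicate 3 was the highest of all 6 libraries for ZWILCH.

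In the KMN network none of 10 genes was called, and 9 differences were positive, against 50% of all tested genes. In 5 genes every AURKA-guide library lay above every control library (10.5% of all tested genes). KNL1, the scaffold that binds the BUB proteins, had the smallest p of this group, with 49.2, 40.1 and 47.4 CPM in AURKA-guide libraries and 37.1, 35.4 and 40.1 CPM in control libraries (0.28, SE 0.0795, adjusted p = 0.0994). Its groups overlapped narrowly, at AURKA-guide replicate 2 and control replicate 3. The 4 subunits of the NDC80 complex, the main microtubule grip, were unequal in their differences: SPC25 at 0.26 (SE 0.0801), NDC80 at 0.26 (SE 0.0814), NUF2 at 0.15 (SE 0.0694) and SPC24 at 0.04 (SE 0.0693). NDC80 had 61.2, 61.7 and 59.9 CPM in AURKA-guide libraries and 47.5, 46.1 and 59.4 CPM in control libraries, so that control replicate 3 stood with the AURKA-guide libraries rather than with the other controls.

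Within the MIS12 complex, which joins the outer layer to CENP-C and CENP-T, MIS12 was at 0.18 (SE 0.0642), DSN1 at 0.10 (SE 0.0613) and NSL1 at 0.05 (SE 0.0725). PMF1, its remaining subunit, was on the other side of 0. PMF1 had 106.5, 101 and 104 CPM in AURKA-guide libraries and 112, 115 and 106 CPM in control libraries (-0.10, SE 0.0527, adjusted p = 0.383), and its exons are shared in part with the readthrough gene PMF1-BGLAP, so its counts are uncertain. ZWINT, which links KNL1 to the RZZ complex, was at 0.08 (SE 0.0476).

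The SKA complex gave SKA3 as its call, with SKA1 at 0.12 (SE 0.0656). SKA2, the subunit with the highest FPKM, had 61.2, 59.7 and 57.4 CPM in AURKA-guide libraries and 54.4, 53.7 and 64.3 CPM in control libraries (0.05, SE 0.0709, adjusted p = 0.780). For SKA2 the groups overlapped, with control replicate 3 the highest library, and the sign turned after the GC correction (-0.02).

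None of the 13 genes of the constitutive centromere-associated network was called. Their median log2 fold change was 0.06, with 10 above 0 (50% of all tested genes). CENPI had the smallest p of this group, with 14, 13.7 and 15.2 CPM in AURKA-guide libraries and 13.1, 10.9 and 12.7 CPM in control libraries (0.23, SE 0.0926, adjusted p = 0.249), and it was also the gene with the lowest FPKM of all 47. Its groups were apart by less than 1 CPM. CENPM, with the highest FPKM of this group, had 49.3, 46.5 and 45.6 CPM in AURKA-guide libraries and 46.1, 55.2 and 44.8 CPM in control libraries (-0.04, SE 0.0769, adjusted p = 0.811; 0.04 after the GC correction). Here control replicate 2 was the highest library.

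The rest of the network ran from -0.09 (CENPT) to 0.20 (CENPU). CENPC, which anchors the network to CENP-A, was at 0.17 (SE 0.0823), and CENPN, which reads the CENP-A nucleosome, at 0.14 (SE 0.0577). In GENCODE 29, CENPL, CENPN, CENPO, CENPP, CENPT and CENPU share 110 to 3719 exon bases with genes on the opposite strand, and so do MIS12, SPC24, ZWILCH, SGO1 and SGO2 (61 to 679 bases). Since the sources used here do not say whether the libraries keep strand, reads of those partners cannot be told apart from theirs.

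In the group of centromeric chromatin and CENP-A loading, HJURP had the smallest p and the highest FPKM, and 3 of the 5 genes were below 0. CENPA, the centromeric histone, was at -0.03 (SE 0.0624, 95% interval -0.16 to 0.11), CENPB, which binds centromeric satellite DNA, at -0.10 (SE 0.0607), OIP5 (MIS18-beta), of the licensing complex for CENP-A loading, at -0.12 (SE 0.0689), and its partner MIS18A at 0.09 (SE 0.0715). None of these 4 was called. OIP5 is overlapped by the antisense gene OIP5-AS1, and CENPA shares exon bases with SLC35F6 on the same strand.

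Among protectors of cohesion, SGO2 had 49.5, 54.9 and 53.8 CPM in AURKA-guide libraries and 43.8, 42.3 and 49.6 CPM in control libraries (0.22, SE 0.0705, adjusted p = 0.143). The groups of SGO2 overlapped narrowly, at AURKA-guide replicate 1 and control replicate 3. SGO1 had the higher FPKM of the pair. It had 36.6, 35.5 and 34.8 CPM in AURKA-guide libraries and 32.2, 31.7 and 37.2 CPM in control libraries (0.08, SE 0.0719, adjusted p = 0.610).

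The chromosomal passenger genes, partners of Aurora B, had no call as counted. Their median log2 fold change was 0.08 as counted and 0.10 after the GC correction, against 0.11 and 0.07 for the 47 genes. CDCA8 (borealin) had 91.0, 96.6 and 99.8 CPM in AURKA-guide libraries and 87.3, 92.9 and 89.7 CPM in control libraries (0.09, SE 0.0549, adjusted p = 0.438). BIRC5 (survivin), with the highest FPKM of the 3, had 149.8, 162 and 152 CPM in AURKA-guide libraries and 144, 143.5 and 152 CPM in control libraries (0.08, SE 0.0517, adjusted p = 0.478). The groups overlapped in both genes. INCENP, the scaffold of the complex, was at 0.07 (SE 0.0532, adjusted p = 0.561) and at 0.14 after the GC correction (adjusted p = 0.0338).

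**Figure D3:**
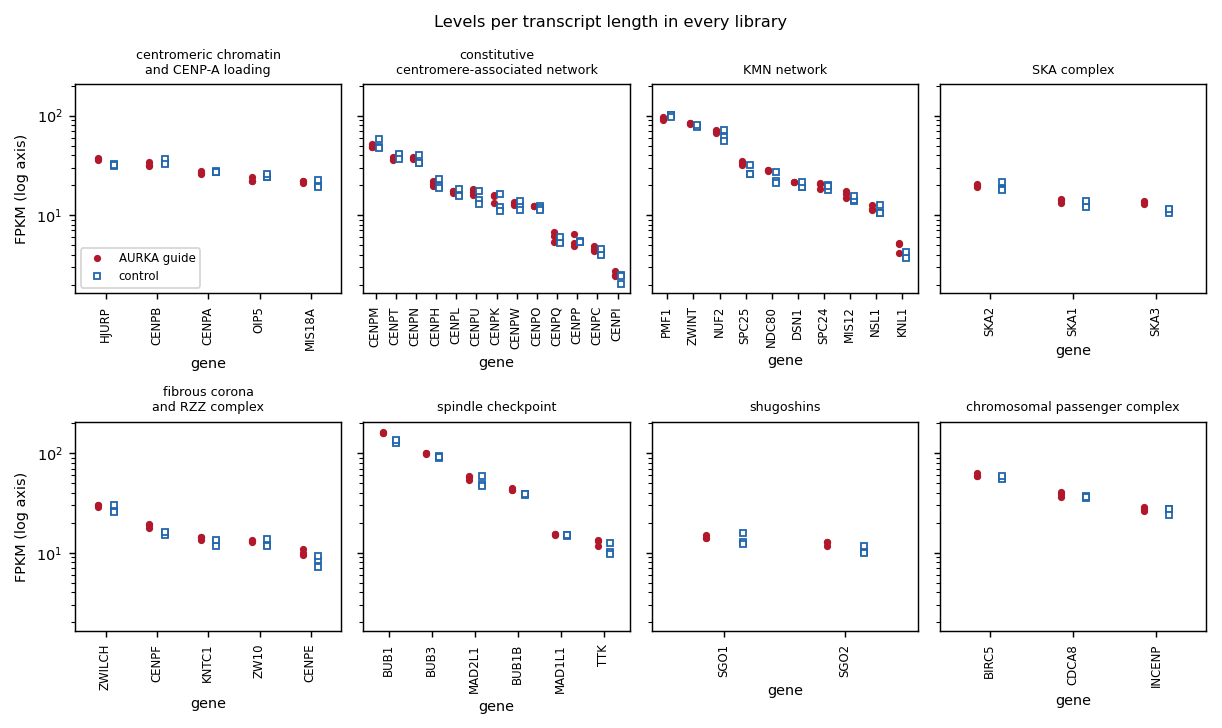
FPKM (the authors' length- and depth-scaled values, log axis) of each gene in each library, by role; filled red circles are AURKA-guide libraries and open blue squares control libraries. BUB1 is the highest and CENPI the lowest gene, and within a gene the groups differ far less than genes differ from each other.

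Levels per transcript length spread over a wide range within single complexes. By FPKM, BUB1 was first with 163 ± 2.23 in AURKA-guide and 133 ± 4.90 in control libraries (SD, n = 3 each), followed by PMF1, BUB3, ZWINT and NUF2. CENPI was last with 2.56 ± 0.177 in AURKA-guide and 2.32 ± 0.257 in control libraries. In the checkpoint group TTK had 12.7 FPKM in AURKA-guide and 10.8 FPKM in control libraries. In the 4-subunit NDC80 complex NUF2 had 69.6 and 62.9 FPKM, SPC25 33.4 and 27.8, NDC80 28.0 and 23.4, and SPC24 19.8 and 19.2, in AURKA-guide and control libraries in that order. In the MIS12 complex PMF1 had 93.95 and 100.02 FPKM, against 11.9 and 11.2 FPKM for NSL1, again in AURKA-guide and control libraries. RNA levels do not give the subunit ratio of the proteins.

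**Figure D4:**
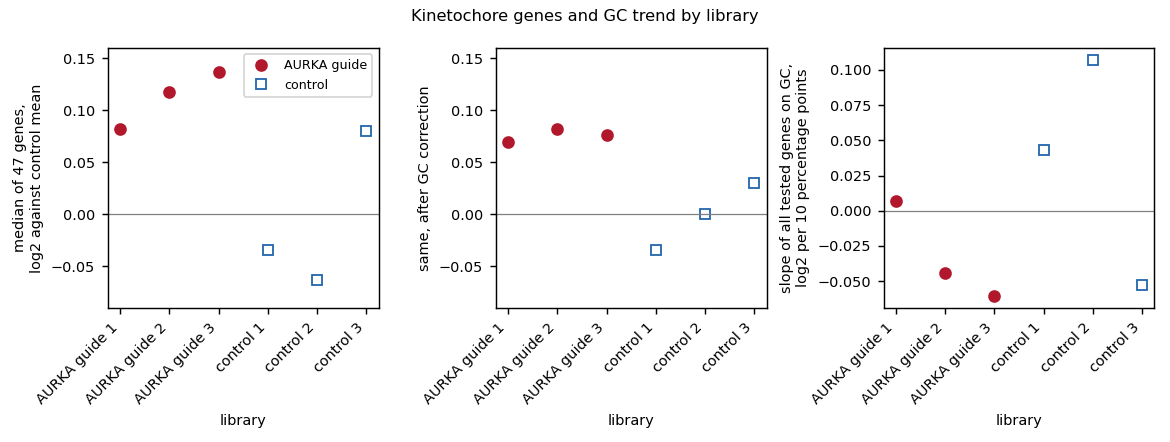
Left, the median over the 47 genes of log2 CPM minus the control mean, in each library; middle, the same after the GC correction; right, the slope of all tested genes on transcript GC content, in log2 per 10 percentage points. Control replicate 3 (0.080) lies beside AURKA-guide replicate 1 (0.083) on the left, and the 3 AURKA-guide libraries lie between 0.070 and 0.082 in the middle, above all 3 control libraries.

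Across the 6 libraries the shift of the whole group ran broadly with base composition. AURKA-guide replicate 1 and control replicate 3, however, had similar medians at unlike slopes on GC content. The median of the 47 genes was 0.083, 0.12 and 0.14 in AURKA-guide replicates 1, 2 and 3, and -0.034, -0.063 and 0.080 in control replicates 1, 2 and 3. The slope on GC content over all tested genes was 0.00724, -0.0439 and -0.0604 in AURKA-guide replicates 1, 2 and 3, and 0.0428, 0.107 and -0.0530 in control replicates 1, 2 and 3. Libraries with a lower slope had relatively higher counts for GC-poor genes, and the 47 genes had a median transcript GC content of 42.48%, against 48.49% over tested genes. After a GC correction, the medians were 0.070, 0.082 and 0.077 in AURKA-guide replicates 1, 2 and 3, and -0.035, -1.66e-04 and 0.030 in control replicates 1, 2 and 3. The groups then did not overlap, and the median log2 fold change was 0.07.

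**Figure D5:**
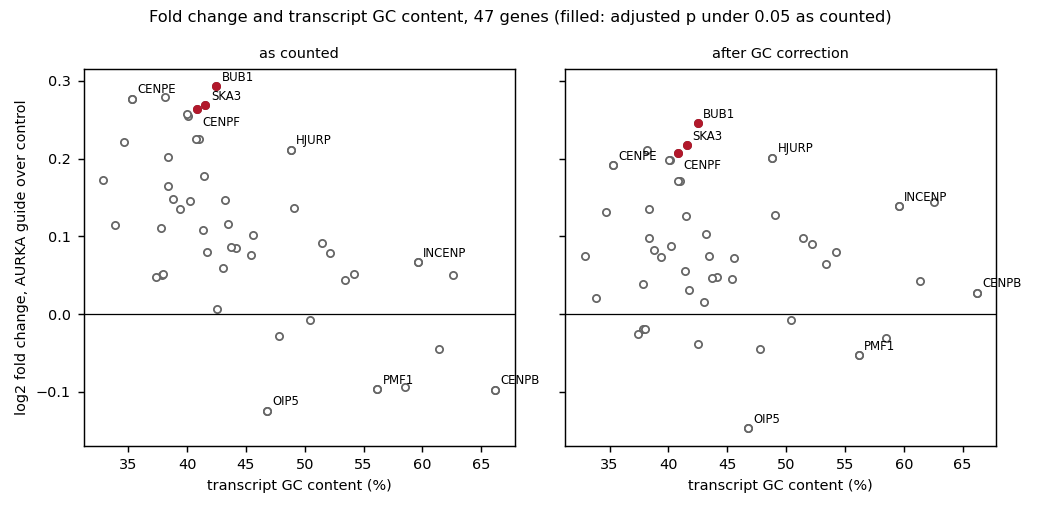
Log2 fold change of each of the 47 genes (vertical axis) against the GC content of its longest coding transcript in percent (horizontal axis), as counted (left) and after the GC correction (right); filled red points are BUB1, CENPF and SKA3. The downward trend on the left (Spearman's rho -0.579) is weaker on the right (-0.171), where BUB1 remains highest at 0.25.

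Across the 47 genes, which share their libraries, the fold change ran with GC content (Spearman's rho -0.579), with transcript length (0.430) and less with FPKM (-0.230). After the correction, which by design removes each library's trend on GC content, rho with GC content was -0.171. With the correction 8 of the 47 genes were higher and none lower, against 2.98% higher and 6.01% in either direction among all tested genes. They were BUB1 (0.25, adjusted p = 1.83e-05), CENPF (0.21, 0.00189), SKA3 (0.22, 0.00838), HJURP (0.20, 0.00303), CENPE (0.19, 0.00834), SPC25 (0.20, 0.0310), NDC80 (0.20, 0.0332) and INCENP (0.14, 0.0338). Of these, BUB1, CENPF, SKA3 and HJURP were also called after the correction without each library in turn. Without control replicate 3, and with no correction, 19 genes were higher and none lower, against 6.81% higher among all tested genes, and the median was 0.15. What sets the base composition of each library was not tested.

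A second list of 26 kinetochore, checkpoint and anaphase genes outside the 47 gave no call among 24 tested (edgeR). At an unadjusted p under 0.05, 8 were higher and none lower (all tested genes, 7.54% higher and 8.58% lower). In 7 genes every AURKA-guide library lay above every control library, and in 3 every one lay below (10.5% and 10.2% of all tested genes). DESeq2 called 1, where it called 0.870% of all genes it tested higher. Without control replicate 3, 6 were called higher, against 6.81% of all tested genes. Their median log2 fold change was 0.04, with 18 above 0 (50% of all tested genes). KIF2C, a microtubule-depolymerising kinesin of the centromere, had the smallest p (0.19, SE 0.0484, adjusted p = 0.0610; 0.00142 after the GC correction), followed by KIF18A, a kinesin that dampens chromosome movement (0.24, SE 0.0674, adjusted p = 0.101), and CKAP5, a microtubule polymerase (0.15, SE 0.0459, adjusted p = 0.120; 0.0193 after the GC correction). CDC20, the target of the checkpoint, averaged 215 CPM in AURKA-guide and 207 CPM in control libraries (0.06, SE 0.0660). The mitotic kinase gene PLK1 was at 0.0078 (SE 0.0503), and AURKB, the kinase of the passenger complex, at -0.0031 (SE 0.0562).

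The transcript table held 237 transcripts of the 47 genes. In 34 genes a single transcript had at least 50% of the control counts. Of the 157 transcripts tested, edgeR called none, against 0.00227% called among all 43979 transcripts tested. At an unadjusted p under 0.05 there were 11, and the share of all transcripts at that threshold was not counted. DESeq2 called 3, all higher, against 0.709% called higher among the 52348 transcripts to which it gave an adjusted p, and the authors' deposited table gives these same 3 a q-value under 0.05. For BUB1 the transcript NM_004336.4 had expected counts of 8168, 7668 and 7753 in AURKA-guide replicates 1, 2 and 3, against 6315, 5260 and 4963 in control replicates 1, 2 and 3 (0.50, SE 0.0927, edgeR adjusted p = 0.432, DESeq2 adjusted p = 1.40e-06). Its groups did not overlap, and its share of BUB1 counts was 72.4% in AURKA-guide and 62.6% in control libraries. The BUB1 transcript NM_001278616.1 varied widely within groups, with 510, 1964 and 1620 expected counts in AURKA-guide and 1874, 1101 and 3182 in control libraries.

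For CENPE the transcript XM_011531548.2 had 1066.5, 881 and 1070.03 expected counts in AURKA-guide and 711, 525 and 559 in control libraries (0.74, SE 0.139, edgeR adjusted p = 0.432, DESeq2 adjusted p = 2.09e-04). For CENPO the transcript NM_001322101.1 had 608, 499 and 494 expected counts in AURKA-guide and 331, 367 and 261 in control libraries (0.72, SE 0.183, edgeR adjusted p = 0.647, DESeq2 adjusted p = 0.0373). Both transcripts were apart between the groups, while CENPO as a gene was at 0.05 (SE 0.0576). Counts of single transcripts rest on how RSEM divides shared reads, and the edgeR and DESeq2 calls differ here.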

How the data were processed

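The authors deposited expected counts and FPKM per gene and per transcript for each library, as the file headers name them. Per the submitters' processing notes, RSEM, Bowtie2, BWA and build hg19 were used, while the sources used here give neither their roles and versions nor the annotation or strandedness. Comparison tables that the authors deposited hold log2 fold changes, p-values and q-values, which the file headers credit to DESeq2. Expected counts were rounded (44.8% of gene values were not whole). The test was run in R 4.3.3 with edgeR 4.0.16: filterByExpr, TMM scaling, the quasi-likelihood F test and Benjamini-Hochberg adjustment over all genes or transcripts tested, at 0.05. SEs come from the F statistic. For the GC correction, each library's deviation was smoothed (spline with 5 degrees of freedom) on the GC content of the longest coding transcript (GENCODE 29; 12811 of 13138 tested genes, the others uncorrected) and entered as an offset. Alternatives were single libraries left out, the replicate number as a block, RLE or library size scaling, other filters, DESeq2 1.42.0 and limma 3.58.1 on log2(FPKM + 1) or log2(FPKM + 0.1). Added after seeing the data was the GC correction without each library.

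All 47 genes are accounted for. Values in every library are given for called genes and, in each role group, for the genes with the smallest p and the highest mean FPKM; others are named for their values. The genes, lists and tests were chosen with earlier results of these data known. The labels do not say whether replicate numbers pair the libraries, and the main test treats them as unpaired. Deviations of same-numbered libraries from their group means correlated at 0.0631, -0.106 and 0.135. Those of differently numbered libraries correlated at -0.253 to 0.211. With 3 libraries in each group these values cannot decide whether there was pairing. Reads are not independent molecules, and tests use the spread between libraries. The authors' hg19 coordinates were not used.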

Additional observations from a re-analysis of the deposited data

How the results depend on the processing

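The fall of AURKA kept its direction and its call in every alternative (-0.79 to -0.73 on the log2 scale). The median of the 47 genes stayed positive, between 0.063 and 0.15, moving by less than 1 SD of the library medians within groups (0.0571, pooled over both groups). Calls among the 47 genes, 3 as reported, ranged from 1 to 19 without single libraries; they were 1 with limma on either FPKM scale, 8 after the GC correction, and 4, 5, 6 or 13 after it without single libraries. Over all genes, 267 as reported, calls ranged from 98 to 2034 without single libraries, were 789 after the GC correction, and after it were 464, 645 and 416 without AURKA-guide replicate 1, 2 or 3 and 493, 541 and 862 without control replicate 1, 2 or 3. In the second list, 0 as reported, calls ranged from 0 to 6 without single libraries, and were 1 with DESeq2, 2 after the GC correction and 1, 2 or 3 after it without single libraries. DESeq2 called 3 transcripts of the 47 genes. The replicate number as a block, though the labels do not say that the numbers pair libraries, gave 7 of the 47 genes and 1 of the second list. Over all 13138 genes tested that block gave 385 calls, 178 of them higher. The block with the GC correction gave 9, 3 and 881 over all genes. The signs that turned belong to genes near 0, none called. Without single libraries CENPP ranged from -0.10 to 0.047, CENPH from -0.045 to 0.094, CENPA from -0.062 to 0.0053, CENPM from -0.10 to 0.056, CENPW from -0.016 to 0.12 and SPC24 from -0.0085 to 0.087. With limma CENPP was at 0.026 and 0.029. After the GC correction CENPB was at 0.027, CENPH at -0.039, CENPM at 0.043, CENPW at -0.019, NSL1 at -0.019 and SKA2 at -0.025, and with the block added they were at 0.027, -0.039, 0.044, -0.020, -0.020 and -0.025. The cause was not tested.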

Other observations

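The authors' deposited transcript table gives 8 transcripts of the 47 genes a q-value under 0.05 for the AURKA guide over control, among 227 with a q-value, and 1214 among all 78198. Of the 8, 5 have an absolute log2 fold change over 20 in that table, and each of these sums to under 1 expected count over the libraries of 1 group and reaches 1 expected count in at most 1 library. The other 3 are the BUB1, CENPE and CENPO transcripts described above. The same table holds a comparison of an NSD2 guide over the same control, whose libraries were not analysed here, so the comparisons share their control libraries. There the BUB1 transcript NM_004336.4 is at 0.15 (q-value 1), the CENPE transcript XM_011531548.2 at 0.41 (0.416) and the CENPO transcript NM_001322101.1 at 0.30 (1), in the authors' deposited table.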
